A study of Mus musculus with 10 samples.

Results

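The B cell genes described here are 9 genes whose RNA marks B lymphocytes: Cd79a, Cd79b, Ms4a1, Cr2, Pax5, Blk, Cd22, Bank1 and Fcer2a. Their members on the array were all probe sets whose platform annotation gave 1 gene symbol that was one of these names. That gave 13 probe sets for 9 of the 18194 genes with a symbol of their own. RNA was taken from whole lungs of C57BL/6J mice aged 2 weeks and measured on Affymetrix Mouse 430 2.0 arrays, each array holding the RNA of 1 mouse. In the smoke group were 6 pups, each exposed to cigarette smoke in a chamber with its mother from when it was 1 day old. Exposure lasted 1 hour a day during the first 7 days and 2 hours a day during the next 7, with a mean particulate load of 90 mg/m3. The 4 control pups, of the same strain and age, breathed filtered air. The labels give no litter or array batch and leave sex unknown, so the p-values below measure only the spread between these arrays. Whether the smoke pups came from 1 litter is not stated, so smoke and litter cannot be told apart.

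B cells recognise antigen through a surface immunoglobulin that is held in a complex with CD79A and CD79B, the chains that carry the signal into the cell. Kinases of the SRC family, among them BLK, start that signal, coreceptors such as CR2 strengthen it, and CD22 restrains it. PAX5 is the transcription factor that commits a progenitor to the B lineage and keeps it there. In the lung, B cells lie in the vessels and the tissue, and they gather into lymphoid follicles during chronic inflammation, including that caused by smoking.

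No B cell gene passed the test of smoke against control, but most had higher means after smoke. Of the 10 B cell probe sets bright enough to be tested, 9 had a higher mean in the smoke group, where 51.8% of all 27022 probe sets tested did. The median log2 change of the 10 was 0.57, beside 0.02 over all probe sets tested. The count past an adjusted p of 0.05 (limma with Benjamini-Hochberg adjustment over all tested probe sets) was 0 in either direction. Over all probe sets that test called 0.0111% higher and 0.54% lower in smoke. When p was not adjusted (limma, p under 0.05), 6 of the 10 were higher in smoke and 0 lower, where 4.53% of all tested probe sets were higher. These 6 belonged to Cd79a, Cd79b, Cr2, Blk, Bank1 and Fcer2a. The B cell genes and the gene lists below were chosen with earlier results of these data known. Their shares beside those of all probe sets or genes are therefore descriptions and no test of the group. In whole lung RNA, more or fewer B cells and more or less RNA per B cell cannot be told apart.

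**Figure D1:**
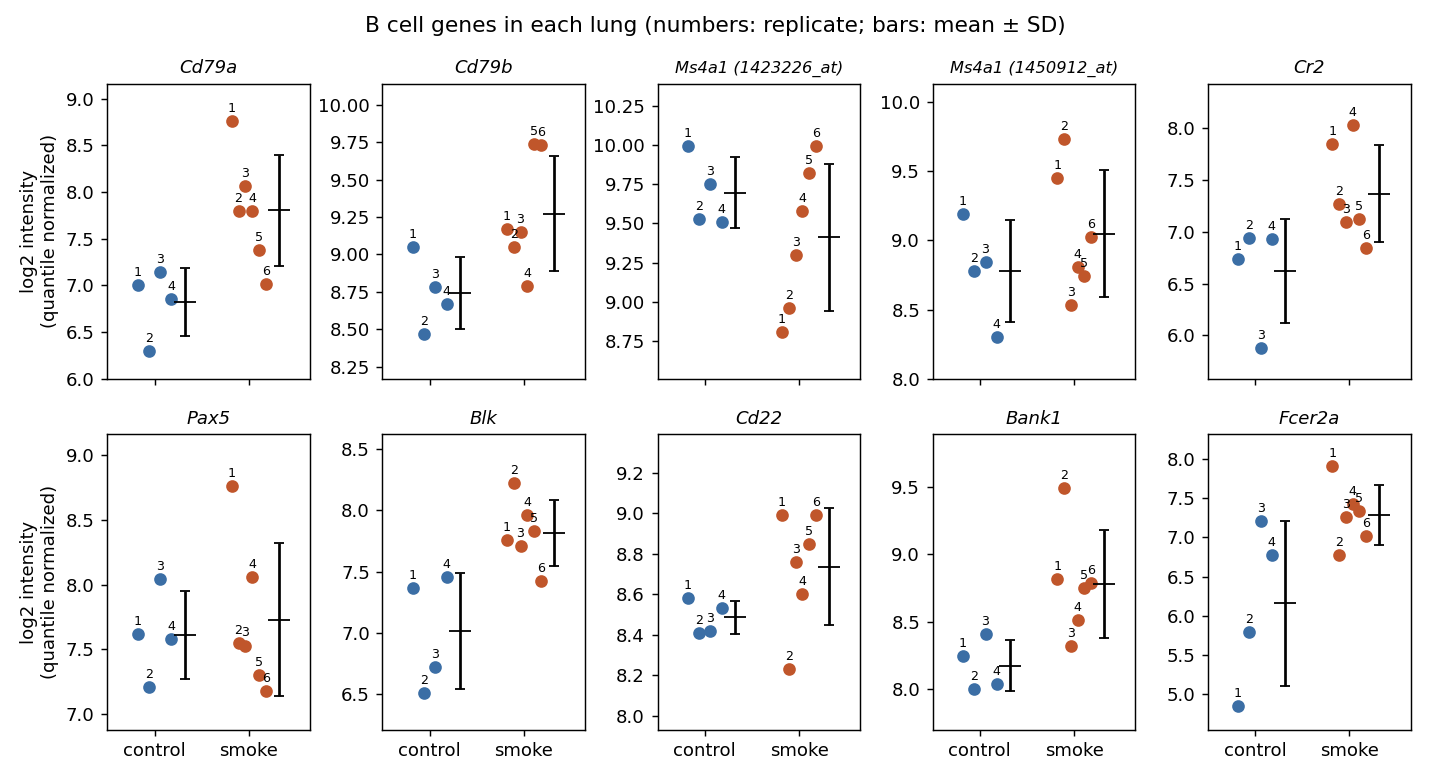
Quantile-normalized log2 intensity of each tested B cell probe set in the 4 control lungs (blue) and the 6 smoke lungs (orange). Numbers give the replicate, bars the mean ± SD, and each panel has its own axis. Cd79a, Cd79b, Cr2, Blk, Cd22 and Bank1 had 5 of 6 smoke lungs above every control lung.

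The antigen receptor chains came first by role. Cd79a (probe set 1418830_at) had log2 intensities of 7.00, 6.30, 7.14 and 6.85 in control lungs 1 to 4. In smoke lungs 1 to 6 they were 8.76, 7.80, 8.06, 7.80, 7.38 and 7.02. All smoke lungs but lung 6 lay above every control, and smoke lung 1 was the highest. The means were 6.82 ± 0.37 (SD, n = 4) and 7.80 ± 0.60 (SD, n = 6). The log2 change was 0.98 ± 0.33 (SE), which is 1.97-fold, and did not pass (limma, Benjamini-Hochberg adjusted p = 0.356). As deposited, before normalization, the intensities were 80.6 to 137.5 in controls and 104.5 to 461.9 after smoke. Smoke lungs 5 and 6 had the lowest Cd79a values of the smoke group. Without them the log2 change of Cd79a was 1.28 ± 0.31 and passed (limma, adjusted p = 0.0477), the only B cell probe set to do so among 10. In that setting 2.05% of all tested probe sets were called higher. Without smoke lungs 1 and 2 it was 0.74 ± 0.29 (limma, adjusted p = 0.378).

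Cd79b (1417640_at), the partner chain, stood at 9.05, 8.47, 8.78 and 8.67 in control lungs 1 to 4. The smoke lungs had 9.17, 9.05, 9.15, 8.79, 9.74 and 9.73. Here the highest values came from smoke lungs 5 and 6, the same lungs that were lowest for Cd79a. The groups overlapped only through smoke lung 4, which lay below the highest control. The means were 8.74 ± 0.24 (SD, n = 4) and 9.27 ± 0.38 (SD, n = 6), a log2 change of 0.53 ± 0.23 or 1.44-fold (limma, adjusted p = 0.481). Without smoke lungs 5 and 6 the change was 0.30.

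Among the signalling proteins, Blk encodes a SRC family kinase of the B cell receptor. Its probe set (1422775_at) read 7.37, 6.51, 6.72 and 7.46 in the controls and 7.76, 8.22, 7.71, 7.96, 7.83 and 7.42 after smoke. Smoke lung 6 alone fell inside the control range. The means were 7.02 ± 0.47 (SD, n = 4) and 7.82 ± 0.27 (SD, n = 6), so that the smoke lungs varied less than the controls. The log2 change was 0.80 ± 0.26, or 1.74-fold, with the smallest adjusted p of the tested B cell probe sets, 0.327 (limma). Bank1, a scaffold protein that links the receptor to SRC family kinases, gave 8.25, 8.0, 8.41 and 8.04 in the controls (1456328_at). After smoke it gave 8.82, 9.49, 8.32, 8.51, 8.75 and 8.79. Smoke lung 2 stood highest, and smoke lung 3 was the one within the control range. The log2 change of Bank1 was 0.61 ± 0.23, or 1.52-fold (limma, adjusted p = 0.415), and 0.46 without smoke lung 2.

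The coreceptors differed in size of change. Cr2 encodes complement receptor 2 (CD21), which joins antigen coated with complement to the B cell receptor and is also found on follicular dendritic cells. Its log2 intensities (1425289_a_at) were 6.74, 6.94, 5.88 and 6.93 in the controls and 7.85, 7.27, 7.09, 8.03, 7.12 and 6.84 after smoke. The low control 3 widened the control group, and smoke lung 6 alone did not exceed every control. The means were 6.62 ± 0.50 (SD, n = 4) and 7.37 ± 0.47 (SD, n = 6). The log2 change of Cr2 was 0.74 ± 0.32, or 1.67-fold (limma, adjusted p = 0.477), and 0.50 without control 3.

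Cd22, a sialic acid binding lectin that dampens receptor signalling, had closely spaced controls (1419768_at), at 8.58, 8.41, 8.42 and 8.53. The smoke lungs read 8.99, 8.23, 8.76, 8.60, 8.85 and 8.99. Of these, 5 were above every control and smoke lung 2 was below every control. The log2 change was 0.25 ± 0.20 (limma, adjusted p = 0.681). A second Cd22 probe set (1419769_at) was too dim to be tested with the rest. It read 3.98 to 5.25 in controls and 3.98 to 5.79 after smoke, with a difference of 0.16 (two-sided exact permutation test, p = 0.624). A value of 3.98 is the floor to which all dimmer values were set.

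Ms4a1 encodes CD20, a membrane protein of mature B cells, and its probe sets differed in sign. The brighter one (1423226_at) had 9.99, 9.53, 9.75 and 9.51 in the controls and 8.81, 8.96, 9.30, 9.58, 9.82 and 9.99 after smoke. Smoke lungs 1, 2 and 3 were below every control. Its log2 change was -0.29 ± 0.25 (limma, adjusted p = 0.729), and -0.16 without smoke lung 1. The other (1450912_at) had 9.19, 8.78, 8.84 and 8.30 in the controls and 9.45, 9.73, 8.53, 8.81, 8.74 and 9.02 after smoke. Smoke lungs 1 and 2, the lowest on the first probe set, were the highest on this one. Its log2 change was 0.27 ± 0.27 (limma, adjusted p = 0.758), with a lowest value of 0.11 when control 4 was left out. The deviations of both probe sets from their group means had a Pearson r of -0.35 over the 10 lungs. Without smoke lungs 1 and 2 the changes were -0.02 and -0.0014.

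Fcer2a encodes CD23, the low affinity IgE receptor of mature B cells. It gave 4.85, 5.80, 7.21 and 6.78 in the controls (1422122_at), the widest control spread of the tested B cell probe sets. After smoke it gave 7.91, 6.78, 7.26, 7.42, 7.34 and 7.02, so that 4 smoke lungs were above every control. The means were 6.16 ± 1.05 (SD, n = 4) and 7.29 ± 0.38 (SD, n = 6). The log2 change was 1.13 ± 0.43, or 2.19-fold (limma, adjusted p = 0.408), and it rested on the dim controls: it was 0.69 without control 1 and 1.48 without control 3. The second Fcer2a probe set (1451713_a_at) was under the brightness limit, with all 4 controls and 3 smoke lungs at the floor and the other smoke lungs at 4.43 to 4.70. The two-sided exact permutation test gave p = 0.2 for it, where the smallest p these group sizes allow is 0.00476.

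Pax5 read 7.62, 7.21, 8.04 and 7.58 in the controls and 8.76, 7.55, 7.53, 8.06, 7.30 and 7.18 after smoke (1454401_at). Smoke lung 1 stood well above the others, 3 smoke lungs lay within the control range and lung 6 lay just below it. The log2 change was 0.12 ± 0.32 (limma, adjusted p = 0.914), and -0.09 without smoke lung 1. A dimmer Pax5 probe set (1421765_at) differed by 0.30 (two-sided exact permutation test, p = 0.486).

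**Figure D2:**
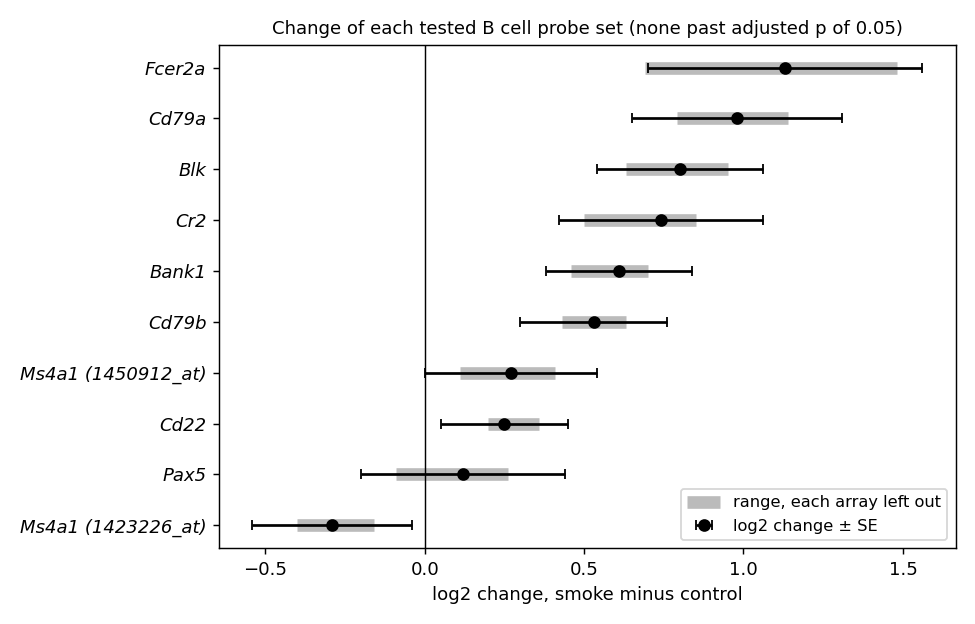
Log2 change, smoke minus control, of each tested B cell probe set with its SE (whiskers). The grey bar is the range when each lung was left out in turn. Changes ran from -0.29 (Ms4a1, 1423226_at) to 1.13 (Fcer2a), and Pax5 alone had a grey bar on both sides of 0.

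Separation of the groups was frequent but never complete. None of the 10 tested probe sets had all 6 smoke lungs above all 4 controls, where 1.54% of all tested probe sets did. In 6 of the 10, at least 5 smoke lungs were above every control, where 5.07% of all tested probe sets had this. The smoke lung that broke the pattern differed: lung 6 for Cd79a, Blk and Cr2, lung 4 for Cd79b, lung 3 for Bank1 and lung 2 for Cd22. Averaged over the 9 genes, with the brightest probe set of each, the log2 level was 7.72, 7.46, 7.82 and 7.82 in the controls. It was 8.54, 8.15, 8.13, 8.31, 8.24 and 8.11 in the smoke lungs, without overlap. How often averages of 9 other genes separate was not tested, and the shares above are for single probe sets.

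Some properties of the lungs ran alongside these values. The ratio of the 3' to the 5' actin probe sets, a measure of RNA integrity, was 3.96 to 10.4 in the controls. It was 31.6 and 29.4 in smoke lungs 1 and 2, and 2.18 and 2.98 in smoke lungs 5 and 6. With its log2 value as a covariate, 0 B cell probe sets passed and the median change was 0.57, with a lowest adjusted p of 0.114 (limma, Cd79a). Leaving out smoke lungs 1 and 2, the median change was 0.52 and 0 passed. In that setting 5 of the 10 were higher at an unadjusted p under 0.05 (limma), where 4.84% of all tested probe sets were.

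Xist, the RNA made from the inactive X chromosome of females, had log2 intensities of 13.96 to 14.09 in controls 2 and 4 and smoke lungs 5 and 6. In the other lungs it was 8.25 to 9.38. The groups held unequal shares of these levels, 2 of 4 controls against 2 of 6 smoke lungs. Among the low Xist lungs, Cd79a differed by 1.03 between smoke and control, and among the high ones by 0.63, without overlap in either. Cd79a was the 1 B cell probe set of 10 that was higher after smoke without overlap in both, and 2.72% of all tested probe sets were. Cr2 differed by 1.24 in low Xist lungs and 0.05 in high ones, and Cd79b by 0.12 and 1.16. Ms4a1 (1423226_at) differed by -0.71 and 0.39, opposite in sign and without overlap in either. In all, 8 of the 10 had a higher smoke mean in both, where 22.0% of all tested probe sets did. The difference between the strata was 1.04 ± 0.35 for Cd79b (limma interaction, adjusted p = 0.266), 1.09 ± 0.39 for Ms4a1 (adjusted p = 0.287) and -1.20 ± 0.61 for Cr2 (adjusted p = 0.381). None passed. With the Xist level as a block, the lowest adjusted p of a B cell probe set was 0.336 (limma).

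**Figure D3:**
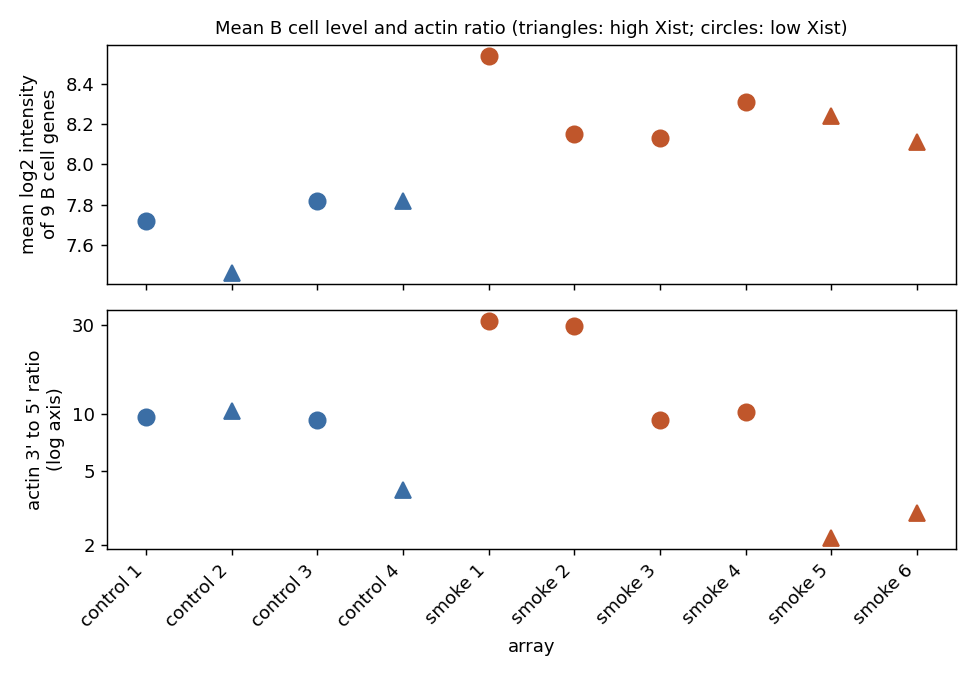
Mean log2 intensity of the 9 B cell genes (upper panel) and ratio of 3' to 5' actin signal on a log axis (lower panel) in each lung, controls in blue and smoke in orange, with triangles for high and circles for low Xist. The B cell mean was 7.46 to 7.82 in controls and 8.11 to 8.54 after smoke, while the actin ratio was highest in smoke lungs 1 and 2 and lowest in smoke lungs 5 and 6.

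Within the groups the B cell genes did not vary as a block. Over the 36 pairs of genes, Pearson's r between deviations from the group means had a median of -0.0015 over 10 lungs, and 18 pairs were above 0. With all lungs the highest r was 0.89, for Cd79a with Pax5, and without smoke lung 1 it was 0.76 for this pair. Cd79b went with Ms4a1 (0.65) and Cd22 (0.57). The lowest values were -0.65 for Cd79a with Ms4a1, which was -0.41 without smoke lung 1, and -0.59 for Cd79b with Cr2. Without that lung the range was -0.60 (Cd79b with Cr2) to 0.83 (Ms4a1 with Cd22, 0.37 with all lungs). The points share the array, and its RNA integrity, with every other gene. These values are descriptions and carry no test.

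**Figure D4:**
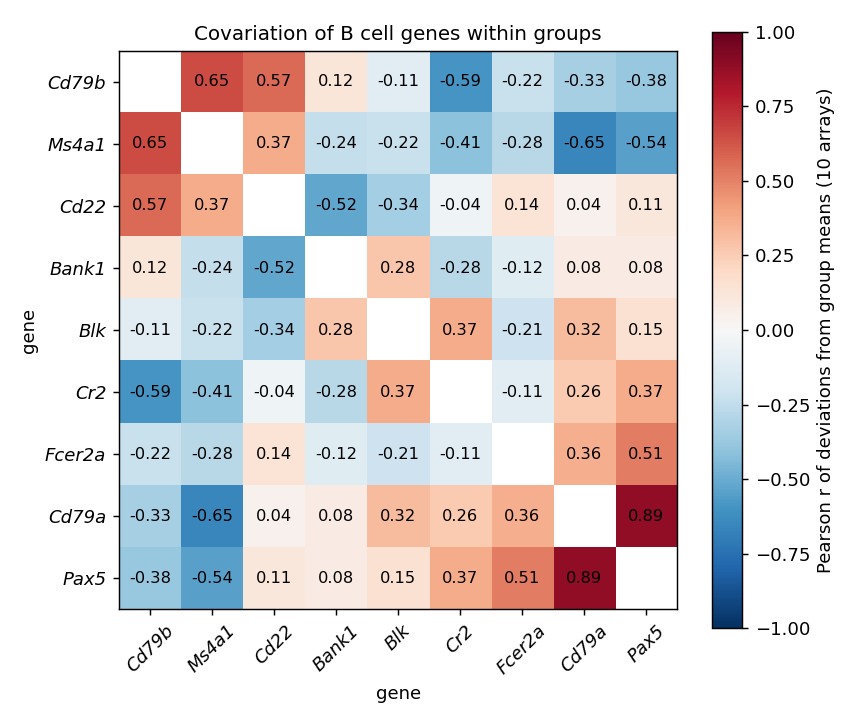
Pearson's r between B cell genes over the 10 lungs, computed on deviations of log2 intensity from the mean of each group. Red squares are pairs that were high in the same lungs (Cd79a with Pax5, 0.89) and blue squares pairs that were not (Cd79a with Ms4a1, -0.65). Without smoke lung 1 these were 0.76 and -0.41.

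Outside the gene lists, the genes with the highest median r to the 9 B cell genes were Dlx5 (0.53), Ncstn (0.49), Agbl4 (0.47), Sars2 (0.47), Olfr65 (0.46) and Tsen34 (0.46). The median r of a B cell gene with the other 8 ran from -0.26 (Ms4a1) to 0.17 (Cd79a). The outside genes were picked from all tested genes for this measure, and the B cell genes were not. None of the 6 passed the test of smoke against control, and their log2 changes were -0.30 to 0.29.

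Upstream sequences were available for 6 of the 9 genes, in windows of 250 bases before and 50 after a RefSeq start (GRCm38.p6). The last 160 bases before the start are shown for Cd79a, Cr2 and Bank1 as 3 examples. Each holds an E-box of the kind bound by E2A and gave a higher mean after smoke, but Cd22 and Fcer2a did so too. Pax5, the gene with a window but no E-box in it, also had a higher mean (log2 change 0.12 ± 0.32). A tie between the motif and the change was not tested. Sequences run 5' to 3' along the gene, and capitals mark the motifs found.
Cd79a, chr7:24897337-24897496, plus strand: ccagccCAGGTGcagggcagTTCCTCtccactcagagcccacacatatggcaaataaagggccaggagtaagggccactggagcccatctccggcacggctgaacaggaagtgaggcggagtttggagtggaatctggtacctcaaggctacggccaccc
Cr2, chr1:195176720-195176879, minus strand: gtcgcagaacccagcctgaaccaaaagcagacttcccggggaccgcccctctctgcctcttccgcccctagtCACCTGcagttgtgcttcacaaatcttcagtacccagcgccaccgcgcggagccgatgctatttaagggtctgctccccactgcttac
Bank1, chr3:136326067-136326226, minus strand: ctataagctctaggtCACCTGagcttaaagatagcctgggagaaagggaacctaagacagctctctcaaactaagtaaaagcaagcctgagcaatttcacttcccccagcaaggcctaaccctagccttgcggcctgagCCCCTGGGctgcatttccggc
The E-box searched was CAGGTG on both strands, and it stood 154 bases before the start in Cd79a, 88 in Cr2 and 145 in Bank1. It was in 5 of the 8 windows of the 6 genes, and in 20.2% of all 32851 windows of 300 bases. The 5 windows belonged to 5 genes, these and Cd22 and Fcer2a, and Fcer2a had 3 of the 8 windows. The EBF motif CCCNNGGG lay 21 bases before the start of Bank1 and 48 before that of Cd22, and was in 13.7% of all windows. The PU.1 core GAGGAA lay 140 bases before the start of Cd79a and was in 28.3% of all windows. The octamer ATGCAAAT was in none of the 8 windows of these genes and in 1.74% of all. The motifs do not overlap in the printed sequences. A match describes letters in a window and shows no binding.

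Genes related to the B cell genes were read from lists of their pathway. The lists covered the B cell receptor and its signalling, B lineage transcription factors and other mature B cell genes. Immunoglobulin and plasma cells, early B cells, the niche and antigen presentation had lists too. With the B cell genes set aside, the lists held 135 gene symbols, some of them older names of genes also listed. Tested were 93 genes. Of these 58 had a higher mean after smoke, 62.4%, beside 56.9% of all 13382 genes tested, with medians of 0.14 and 0.06. The count past an adjusted p of 0.05 was 0 (limma with Benjamini-Hochberg adjustment), where 0.0224% of all genes were called higher and 0.702% lower. Without adjustment (limma, p under 0.05), 10 of the 93 were higher and 4 lower, where 5.75% and 4.47% of all genes were. All smoke lungs exceeded all controls in 4 of the 93, and in 1.97% of all genes.

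Those 4 were Fcrla, H2-Ob, Spib and Sdc1. Fcrla, an Fc receptor-like protein of B cells, had 7.80, 7.53, 7.41 and 6.90 in the controls and 8.22, 9.13, 8.57, 8.21, 8.35 and 8.21 after smoke. Its log2 change was 1.04 ± 0.25 (limma, adjusted p = 0.146). The suffix of its probe set, _s_at, marks probes that can match several related transcripts, and the same holds for the Ighm probe set below. H2-Ob, a chain of the B cell modulator of peptide loading on class II molecules, had 8.13 to 8.57 in controls and 8.63 to 9.52 after smoke, a change of 0.76 ± 0.23 (limma, adjusted p = 0.276). Spib, an ETS transcription factor of B cells and plasmacytoid dendritic cells, had 7.14 to 8.35 and 8.39 to 8.64, a change of 0.74 ± 0.23 (limma, adjusted p = 0.297). Sdc1, the plasma cell proteoglycan CD138 that epithelium also makes, had a change of 0.35 ± 0.12 (limma, adjusted p = 0.370). Cxcl12, a chemokine that holds B cell precursors in their niche, had a change of 0.78 ± 0.22 with 5 smoke lungs above every control (limma, adjusted p = 0.225). The others with a higher mean and an unadjusted p under 0.05 were Bcl11a (0.85 ± 0.33), a transcription factor of early lymphoid cells, and Ighg3 (0.72 ± 0.28), an IgG heavy chain. Tnfrsf13c (0.56 ± 0.24), the BAFF receptor, Rasgrp3 (0.54 ± 0.22), an exchange factor for RAS, and Id3 (0.39 ± 0.15), an inhibitor of E2A, completed them. Their adjusted p-values were 0.417 to 0.464 (limma).

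In the other direction, Bcl6, the transcriptional repressor of germinal centre B cells that many other cells express, had 10.20, 10.32, 10.79 and 9.92 in the controls. After smoke it had 8.90, 9.69, 9.75, 9.37, 9.25 and 9.60, all below every control. Its log2 change was -0.88 ± 0.23 (limma, adjusted p = 0.173). Cd72, an inhibitory coreceptor, had 8.34, 8.40, 8.49 and 8.04 in the controls and 8.02, 7.12, 7.46, 6.96, 7.87 and 7.84 after smoke, again without overlap. The share of all genes with every smoke lung below every control is not given here. More of all genes were called lower (0.702%) than higher (0.0224%). The log2 change of Cd72 was -0.78 ± 0.25 (limma, adjusted p = 0.340). Cd52 and Cd53, surface proteins of lymphocytes and other leukocytes, had changes of -0.70 ± 0.20 and -0.81 ± 0.35 (limma, adjusted p = 0.230 and 0.478).

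By group, the receptor and coreceptor list had 9 of 10 tested genes above 0 with a median change of 0.34, and 5 of 6 with a median of 0.22 once the 9 B cell genes were set aside. In that list Siglecg, an inhibitory lectin, had a change of 0.37 ± 0.22. Receptor signalling had 16 of 22 above 0 (median 0.10), with -0.30 ± 0.16 for the phosphatase Ptprc and 0.36 ± 0.22 for Malt1, and B lineage transcription factors 11 of 16 (0.23). Other mature B cell genes had 13 of 22 (0.20), and immunoglobulin and plasma cell genes 9 of 10 (0.34), with 0.77 ± 0.52 for Iglv1, a light chain gene. Early B cell genes had 4 of 9 (-0.08), with -0.38 ± 0.36 for Il7r, 0.91 ± 0.93 for Rag1 and -0.31 ± 0.32 for Erg. The B cell niche had 4 of 7 (0.01), with 0.56 ± 0.27 for Ltb and -0.74 ± 0.54 for Il7. Class II genes had 4 of 9 (-0.23), with 1.23 ± 0.61 for Ciita, their master activator, and -0.29 ± 0.19 for H2-Aa. For Ciita and for Rag1 the lowest control was at the floor of 3.98. None of the genes named in these sentences passed (limma, adjusted p = 0.519 or more). Some list medians moved without smoke lungs 1 and 2, to 0.20 for class II, 0.09 for early B cells, 0.14 for immunoglobulin and plasma cells and 0.08 for other mature B cell genes. That of the B lineage transcription factors was 0.05 when a gene was the mean of its probe sets. The median of the 9 B cell genes was 0.61 in each of these settings. In the immunoglobulin list smoke lung 2 stood apart for Ighm and Jchain. Ighm, the IgM heavy chain, was 13.59 in that lung and 9.87 to 10.84 in the other smoke lungs. Jchain, which joins IgM and IgA into polymers, was 10.64 in that lung and 7.42 to 8.44 in the others.

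Markers of other cells were read in the same lungs. T cell genes had 3 of 9 above 0 with a median of -0.06 (0.10 without smoke lungs 1 and 2), and their summed intensities were 1551 to 2059 in controls and 1558 to 2295 after smoke. Thymocyte genes had 7 of 8 above 0 with a median of 0.34 (0.13 without smoke lungs 1 and 2, 0.74 without 5 and 6), and summed to 2690 to 5948 and 2489 to 7547. Natural killer cell genes had 3 of 7 above 0 (-0.07), and myeloid and dendritic cell genes 4 of 11 (-0.19). Red cell and platelet genes had 4 of 7 (0.03). Neutrophil genes had 1 of 7 above 0 and summed to 25170 to 36520 in controls and 7871 to 17476 after smoke. Of these, 3 fell: S100a9, S100a8 and Mmp8 had log2 changes of -2.0, -1.60 and -1.39 (limma, adjusted p = 0.00423, 0.00777 and 0.0128). Genes of lung epithelium, endothelium and mesenchyme, among them Sftpc and Scgb1a1, had 6 of 12 above 0 with a median of 0.01 (0.22 without smoke lungs 1 and 2), and summed to 106282 to 116858 and 94935 to 127394. The 9 B cell genes summed to 2185 to 2860 in controls and 2901 to 3538 after smoke. The part of these other cells in the B cell values was not tested.

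**Figure D5:**
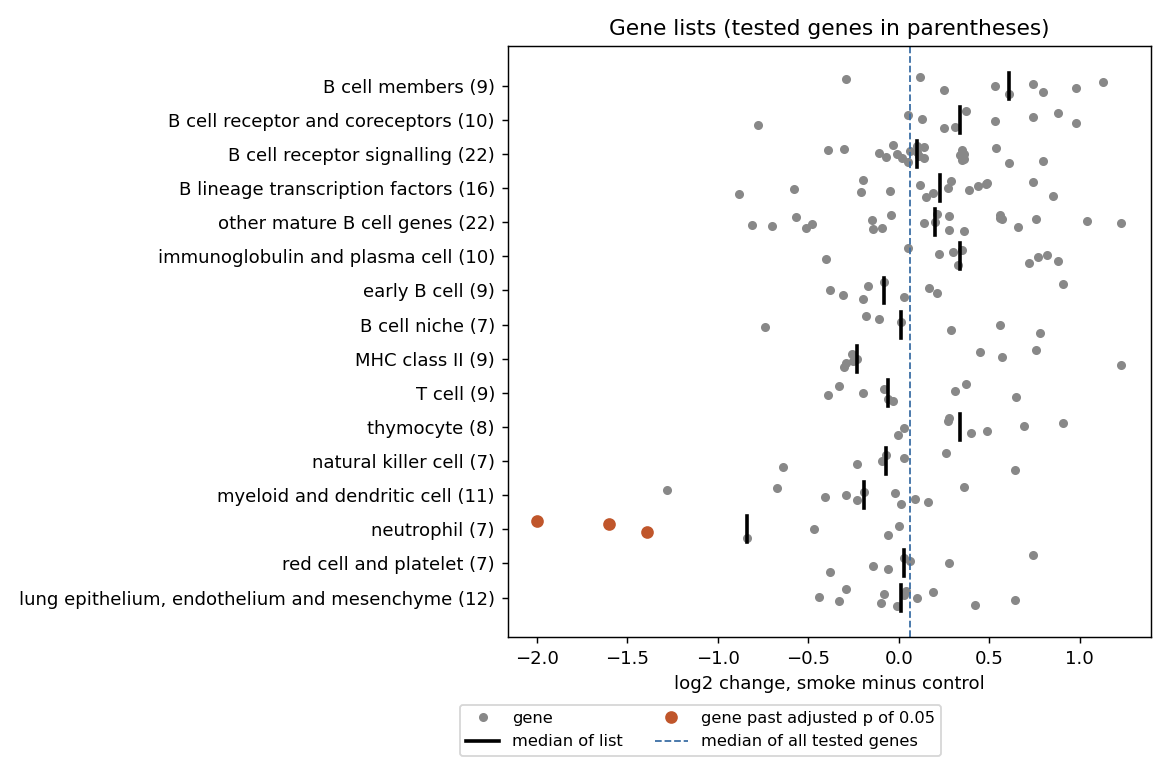
Log2 change, smoke minus control, of every tested gene in each list (points, brightest probe set of a gene), with the list median (black bar) and the median of all tested genes (dashed line, 0.06). The B cell genes have a median of 0.61 over 9 genes, and the 3 genes past the adjusted p of 0.05 are all neutrophil genes.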

How the data were processed

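The authors deposited 1 linear intensity per probe set and array. The program that summarised the probes is not given in the sources used here. From these values log2 was taken (1 value of 0 became the smallest positive value), the arrays were brought to 1 distribution by quantile normalization, and a floor was set at the 10th percentile (an intensity of 15.8). Of 45101 probe sets, 64 controls were left out. The upper 60% of the others by mean, 27022, were tested with limma 3.58.1 in R 4.3.3 (lmFit, eBayes with trend), two-sided, with Benjamini-Hochberg adjustment. Probe sets under that limit had an exact permutation test. A gene was its brightest tested probe set with 1 symbol. The members, gene lists and alternatives were chosen with earlier results of these data known. All 9 members are named. Of related lists the text names the 3 genes with the smallest p, and of genes chosen after their values were seen Tnfrsf13c, Id3, Cd53, Ly86 and Jchain. Replicate numbers did not pair the lungs: same-numbered deviations had correlations of -0.068 to 0.171. The 10 arrays limit precision.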

Additional observations from a re-analysis of the deposited data

Results flagged for a closer look

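In smoke lung 2, Ighm and Jchain of the immunoglobulin and plasma cell list lay far from the other 5 smoke lungs. Ighm was at a log2 intensity of 13.59 there, against 9.87 to 10.84 in the others. Jchain was at 10.64, against 7.42 to 8.44. Among 39 groups of B cell and related values examined for such a gap these were the 2 found. Chance gives such a gap in about 1 in 20 independent groups. The 39 groups were not independent: both gaps lay in smoke lung 2, and Jchain was named after its values were seen. The number found therefore cannot be set against that rate, and the cause of the gaps was not tested.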

How the results depend on the processing

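Of 23 alternative settings, 22 called 0 B cell probe sets, as the reported fit did, and leaving out smoke lungs 5 and 6 called 1, Cd79a. Those lungs had the lowest Cd79a values of the smoke group and were its only lungs with high Xist. Among related genes, leaving out smoke lungs 5 and 6 called 2 (H2-Ob, higher, and Cd53, lower), and leaving out smoke lungs 1 and 2 called 1 (Ly86, lower). The log2 change of Pax5 reversed with array weights (-0.17) and without smoke lungs 1 and 2 (-0.09), and ran from -0.09 to 0.26 with each lung left out. That of Ms4a1 (1450912_at) was -0.0014 without smoke lungs 1 and 2. Over all probe sets 149 were called in the reported fit, 342 with array weights, 241 without smoke lungs 1 and 2, 1190 without smoke lungs 5 and 6 and 639 with the actin ratio as a covariate. With each lung left out the count was 87 to 162. With the replicate number as a block (lungs 1 to 4 of each group) it was 1299, Cd79a had a change of 1.28 ± 0.32 (limma, adjusted p = 0.0578) and 0 B cell probe sets passed. With the upper 40% of probe sets tested, 5 of the 10 B cell probe sets had no value. The causes of these differences were not tested.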
